A study of Oryctolagus cuniculus with 30 samples.

Results

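The comparison described here sets rabbit vocal folds that had been injured and given no injection (injury_only) against uninjured folds (control). It holds 11 of the 30 libraries of the series, 5 of injury_only and 6 of control, from 6 of its 15 animals, 3 in each group. Members were chosen by the wording of the sample titles. The right fold of injury_only animal 1 was left out, since it is the 1 library of these groups made in library batch D, while the other 11 came from batch C. Read counts of the left and right fold of an animal were summed, so injury_only animal 1 is represented by its left fold alone.

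All animals were New Zealand white rabbits assigned at random to 5 groups, and messenger RNA of both folds was sequenced. In injury_only the superficial mucosa of both folds was stripped and no agent was injected, and in control there was neither injury nor injection. The labels list 28 days after treatment as the time of tissue collection for injury_only and list no time for control, and the day from which it runs in folds without an injection was not established here. The remaining 3 groups were injured and then injected with a material. They entered the filter on low counts, the scaling of counts and the estimate of the spread between animals, but have group means of their own.

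A vocal fold carries a stratified squamous epithelium over a lamina propria of fibroblasts, collagens, elastic fibres, proteoglycans and hyaluronan, with the vocal muscle beneath it. Ciliated and secretory epithelium of the airway type and mucous glands lie next to the vibrating edge. Muscle fibres are rich in mitochondria and in fast or slow contractile proteins, and are fed by capillaries that take up fatty acids.

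Gene reads numbered 14.2 to 27.5 M in the 6 control libraries and 19.4 to 23.3 M in the 5 injury_only libraries. Levels below are read counts scaled to library size by TMM factors (CPM, from edgeR) for animals 1, 2 and 3 in turn, and fold changes are on the log2 scale from edgeR's quasi-likelihood fit, with an approximate standard error (SE) and a Benjamini-Hochberg adjusted p. A gene is said to have risen or fallen only where that p was under 0.05. In whole tissue, fewer cells of a type and less RNA per cell cannot be told apart.

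The make-up of the dissected pieces differed between the groups. The 2 lists of muscle fibre genes took 3.89%, 6.14% and 4.69% of gene reads in the control animals and 1.18%, 1.37% and 1.67% in the injury_only animals, without overlap. By library, control left folds held 1.23%, 5.33% and 3.43% and control right folds 6.25%, 7.30% and 6.05%. Injury_only left folds held 1.18%, 1.96% and 0.815%, and the right folds of animals 2 and 3 held 0.725% and 2.40%. The left fold of control animal 1 thus lay within the range of injury_only, and the other 5 control libraries lay above it. Muscle content thus differed with the group in all comparisons of summed folds below, and a fit that holds it as a covariate is given after the results by side.

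**Figure D1:**
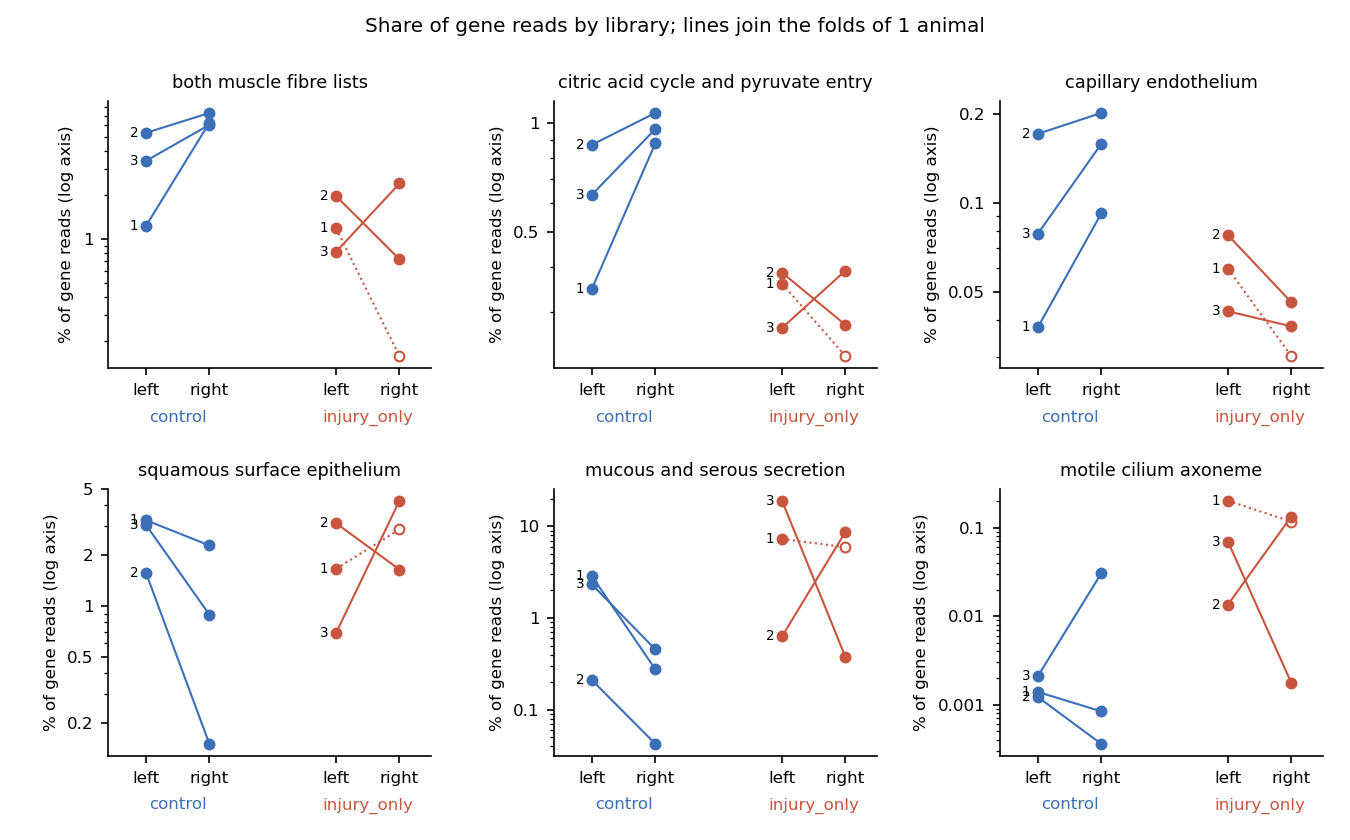
Share of gene reads (log axis, in percent) taken by 6 gene lists in each library, with the left and right fold of an animal joined and animals numbered at the left fold. In control the right folds had more muscle (6.05% to 7.30%, against 1.23% to 5.33% in left folds) and less secretory epithelium than the left folds of the same animals, and the open point is the batch D library that was left out.

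Of 17748 genes tested, 3922 (22.1%) passed the threshold, 1474 higher in injury_only (8.31%) and 2448 lower (13.8%). The median log2 fold change of all genes tested was 0.02. The 3 animals of one group did not overlap with those of the other in 40.7% of genes. Each of the 6 animals was left out in turn, and 1541 of the 3922 calls, 329 of them higher and 1212 lower, were made in all 6 of those fits. Control animal 2 and injury_only animal 1 weighed most. Without control animal 2 there were 380 genes higher and 1359 lower, and without injury_only animal 1 there were 585 higher and 1396 lower. Of the 139 genes named in the text, 68 lost their call without control animal 2 and 61 without injury_only animal 1, while 100 had the same direction and side of the threshold from right folds alone.

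**Figure D2:**
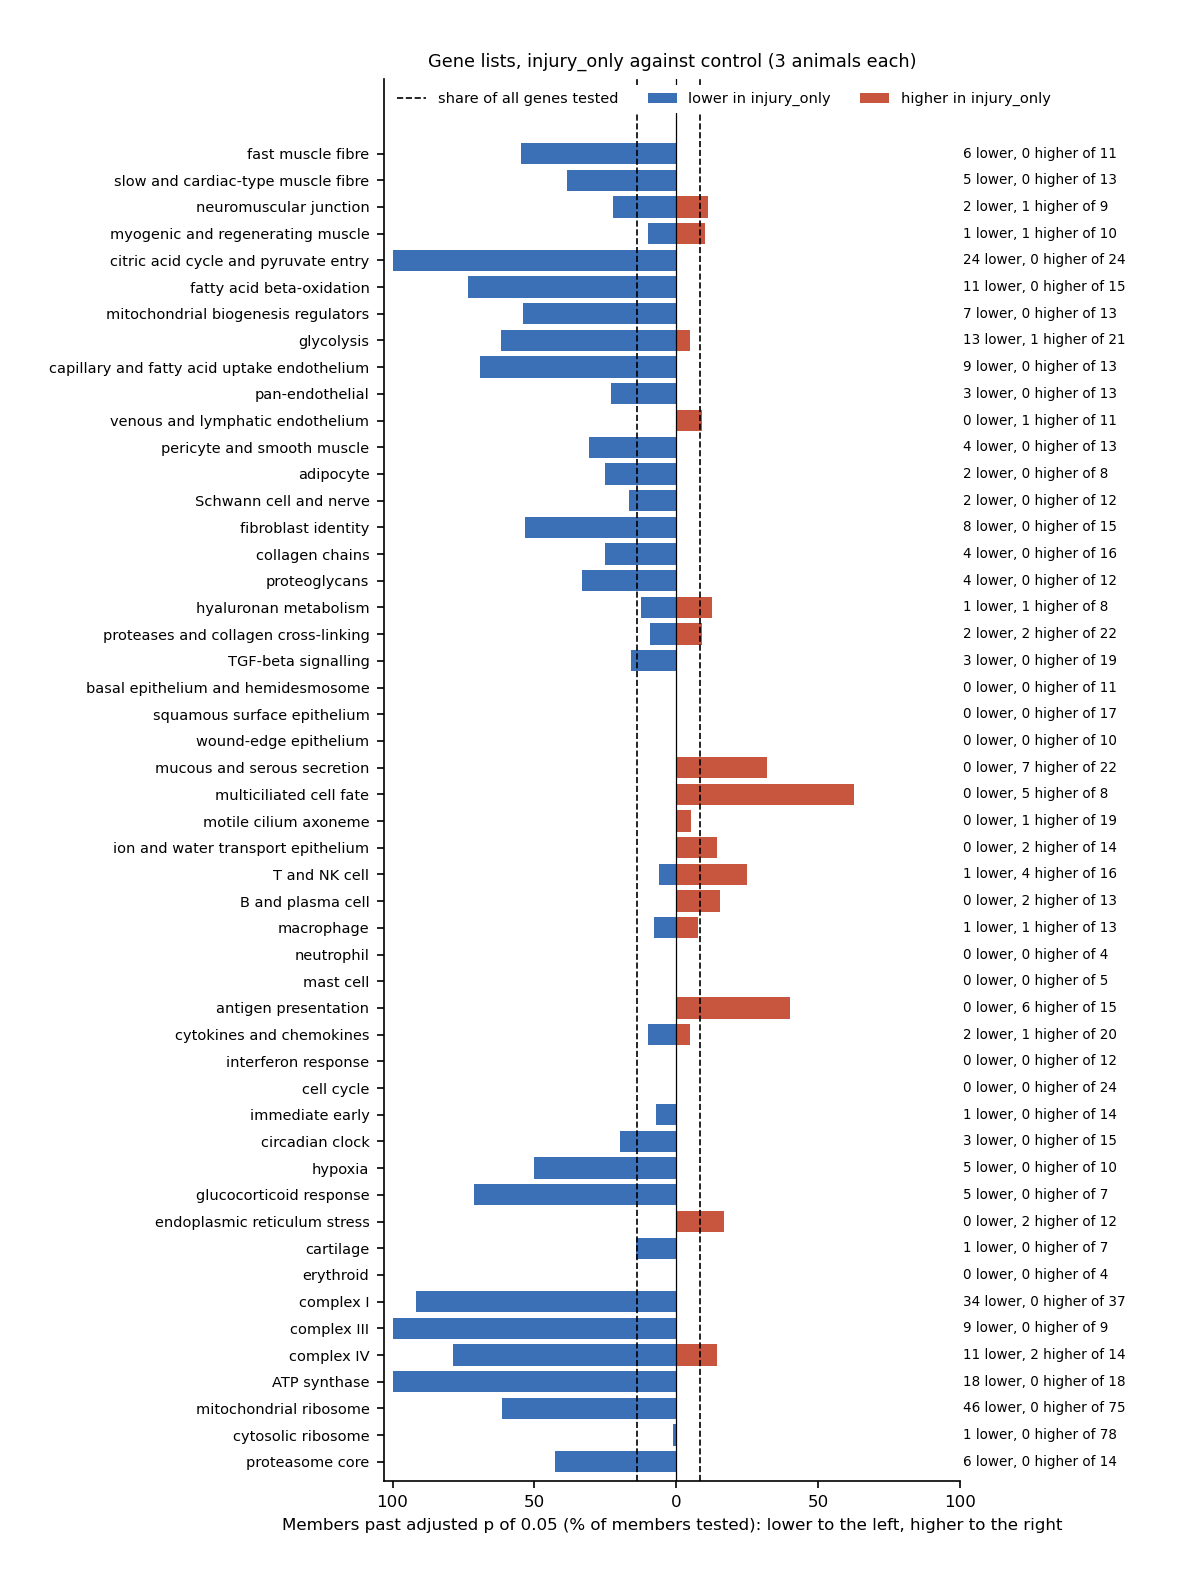
Share of the members tested of each gene list that were lower (blue, to the left) or higher (red, to the right) in injury_only at an adjusted p of 0.05, in percent, with dashed lines at 13.8% and 8.31%, the shares of all genes tested. The lists of mitochondrial metabolism, glucocorticoid response, capillary endothelium and glycolysis are among those that reach far to the left, and those of multiciliated cell fate, antigen presentation and secretion among those far to the right.

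Genes of mitochondrial metabolism were lower in injury_only across every branch that was listed. All 24 genes of the citric acid cycle and pyruvate entry fell, with a median log2 fold change of -1.55. IDH3A, a subunit of the isocitrate dehydrogenase of the cycle, was at 192, 372 and 272 CPM in control and 97.9, 89.3 and 80.9 CPM in injury_only (log2 fold change -1.64, SE 0.20, adjusted p 0.0011). PDHA1, a subunit of the pyruvate dehydrogenase that feeds the cycle, stood at 372, 810 and 587 CPM against 154.5, 188.5 and 175 CPM, a change of -1.77 (SE 0.21, adjusted p 0.0011). In both genes the 3 injury_only animals lay close together and below the lowest control animal.

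Fatty acid beta-oxidation, which cuts fatty acids into acetyl groups for that cycle, followed, with 11 of 15 genes lower, none higher and a median of -1.06. CPT1B, the muscle form of the enzyme that admits long-chain fatty acids to mitochondria, had 96.3, 207 and 175 CPM in control and 37.1, 35.0 and 32.5 CPM in injury_only, and fell by 2.19 on the log2 scale (SE 0.42, adjusted p 0.0046). ACADM, the medium-chain acyl-CoA dehydrogenase, fell by 1.97 (adjusted p 0.0011).

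Of the respiratory chain, 34 of 37 genes of complex I, all 9 of complex III, 11 of 14 of complex IV and all 18 of ATP synthase were lower. NDUFS7, a complex I subunit, was at 54.3, 112 and 79.6 CPM in control and at 19.4, 18.4 and 19.4 CPM in injury_only (log2 fold change -2.10, SE 0.23). Mitochondrial ribosome genes changed less, with a median of -0.60, 46 of 75 lower and none higher. The count for the mitochondrial ribosome ran from 28 to 49 as animals were left out, and that for the citric acid cycle from 23 to 24.

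Regulators of mitochondrial gene expression were lower in part. Of 13 in this list, 7 fell (TFAM, TFB2M, PPARA, ESRRA, PPARGC1B, ESRRB and PERM1), and none rose. TFAM, which binds and packages mitochondrial DNA, was at 38.9, 54.8 and 43.7 CPM in control and at 26.2, 23.1 and 24.4 CPM in injury_only (log2 fold change -0.90, SE 0.16, adjusted p 0.0032). PERM1, a muscle regulator of oxidative genes, fell by 2.83 (SE 0.64, adjusted p 0.0098).

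Muscle and other tissues use different genes for some of the same enzymes, and pairs of such genes, chosen after their values were seen, differed in direction or in size. COX6A2 and COX7A1, heart and muscle forms of complex IV subunits, fell by 2.80 and 2.63 on the log2 scale. COX6A2 was at 91.6, 268 and 191 CPM in control and at 24.2, 27.6 and 27.3 CPM in injury_only (SE 0.50, adjusted p 0.0036). Its widely expressed counterpart COX6A1 was at 93.5, 65.5 and 91.5 CPM against 171, 123 and 118 CPM and rose by 0.72 (SE 0.17, adjusted p 0.012). COX8A, the non-muscle form of another subunit, rose by 0.49 (adjusted p 0.048), with overlap between the groups. COX7A2, the widely expressed partner of COX7A1, fell with it, by 0.93 (SE 0.19, adjusted p 0.0063).

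Glycolysis held further pairs. PFKM, the muscle phosphofructokinase, had 1050, 2759 and 1767 CPM in control and 392, 411 and 438 CPM in injury_only, and fell by 2.17 (SE 0.51, adjusted p 0.012). PFKL, the liver form, was steady at 21.8, 21.4 and 22.5 CPM in control and higher at 36.4, 41.3 and 26 CPM in injury_only (log2 fold change 0.66, SE 0.15, adjusted p 0.011). The muscle enolase ENO3 fell by 2.37 (adjusted p 0.016) and the muscle phosphoglycerate mutase PGAM2 fell by 2.38 (adjusted p 0.025). Their widely expressed counterparts did not pass the test: ENO1 had 414, 296 and 367 CPM against 366, 418 and 343 CPM, and PGAM1 had 202, 134 and 172 CPM against 210, 172 and 174 CPM. The insulin-responsive glucose transporter SLC2A4 fell by 2.59 (adjusted p 0.011). In all, 13 of 21 glycolysis genes were lower and PFKL alone was higher, and without control animal 2 the number lower was 7.

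**Figure D3:**
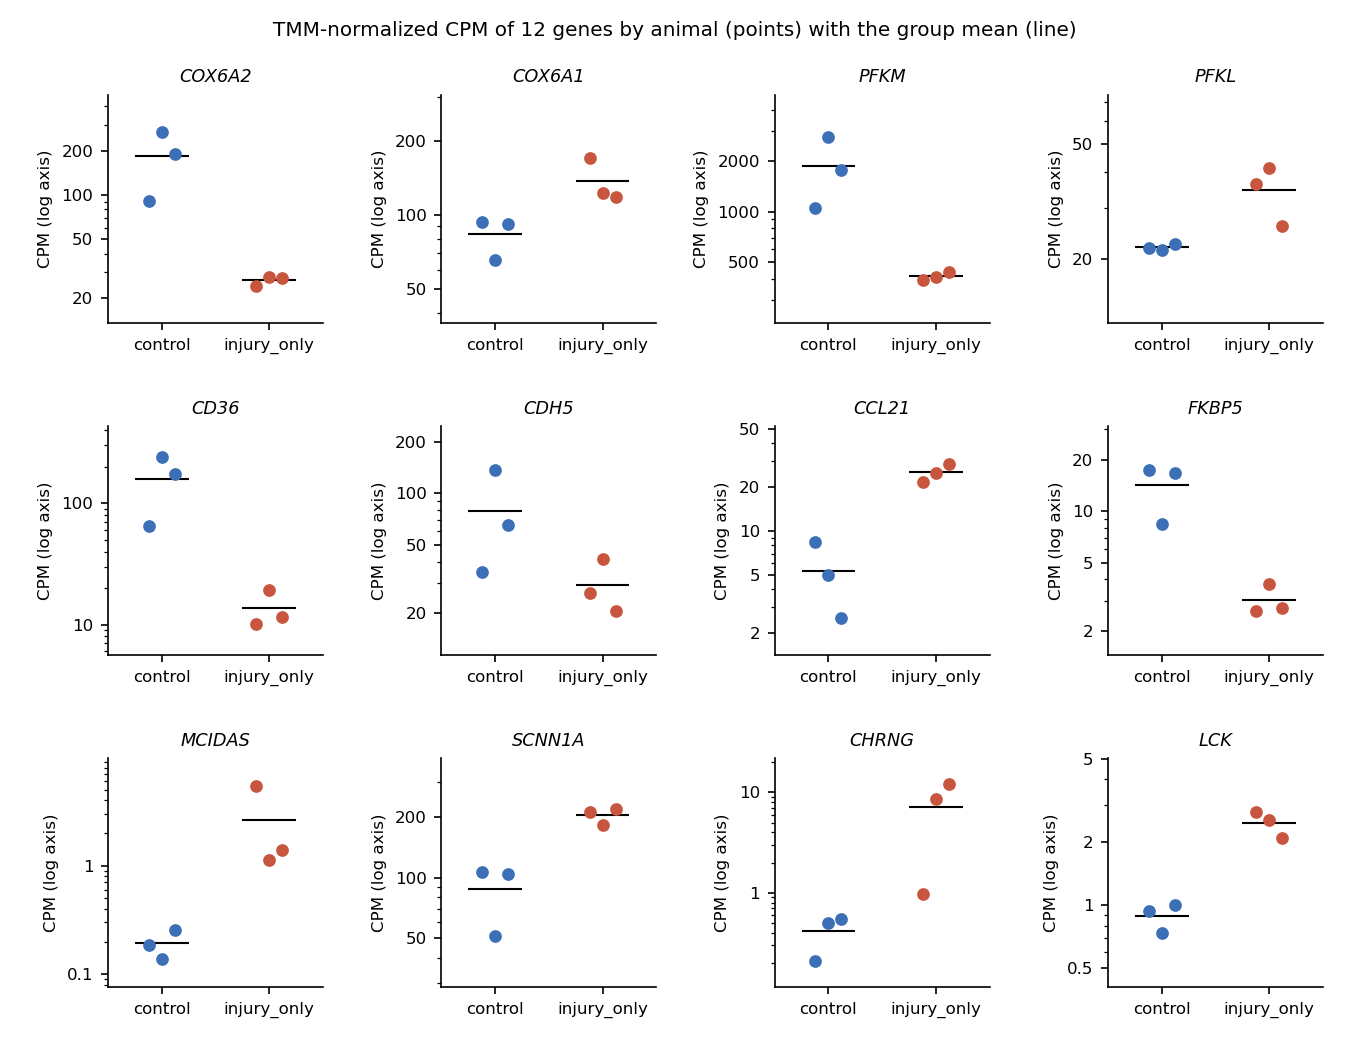
CPM (log axis) of 12 genes in the 3 control and 3 injury_only animals, 1 point per animal, with a line at the group mean. The muscle forms COX6A2 and PFKM, and CD36 of the capillary and fatty acid uptake list, are lower in all 3 injury_only animals than in any control animal, as is FKBP5. COX6A1, PFKL, CCL21, MCIDAS, SCNN1A, CHRNG and LCK are higher in all 3, and CDH5 overlaps.

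Contractile genes of muscle fibres had larger but more variable changes, so that fewer of them passed the test. Of 11 fast fibre genes, 6 fell (median log2 fold change -2.04), and 5 of 13 slow and cardiac-type fibre genes did (median -2.05). The fast myosin heavy chain MYH1 had 14710, 29920 and 16090 CPM in control and 3805, 3589 and 3234 CPM in injury_only (log2 fold change -2.51, SE 0.65, adjusted p 0.018). MYH13, a myosin of extraocular and laryngeal muscle, had 1479, 2050 and 1102 CPM against 13.9, 68.2 and 335 CPM, and fell by 3.47 (SE 1.00, adjusted p 0.029). The injury_only animals thus lay far apart in MYH13 and close together in MYH1. MYH4, the other fast myosin that anchors the list, had 867, 3779 and 2157 CPM against 17.8, 222 and 1457 CPM and did not pass (adjusted p 0.30). No fast fibre gene passed without control animal 2, and no slow fibre gene without injury_only animal 1.

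Of 9 genes of the neuromuscular junction 1 rose and 2 fell, and of 10 genes of muscle formation 1 rose and 1 fell. At these list sizes the counts are near the shares of all genes (8.31% higher and 13.8% lower). The 2 that rose went against the direction of the fibre genes. CHRNG, the gamma subunit of the fetal acetylcholine receptor, which mature innervated fibres replace, was at 0.208, 0.504 and 0.544 CPM in control and at 0.983, 8.53 and 12.2 CPM in injury_only (log2 fold change 4.12, SE 1.12, adjusted p 0.022). MYMX, a small protein needed for the fusion of myoblasts, was at 0, 0.0458 and 0 CPM in control, at most a few reads per library. In injury_only it was at 0.118, 0.590 and 0.705 CPM (adjusted p 0.023). Both were lowest of that group in animal 1, and in animals 2 and 3 a single fold carried most of the level. CHRNG was at 14.4 CPM in the left and 0.520 CPM in the right fold of animal 2, and at 0.830 CPM in the left and 18.99 CPM in the right fold of animal 3. MYMX was higher in the same folds (0.948 CPM in animal 2 and 0.911 CPM in animal 3). RAPSN, which anchors acetylcholine receptors, LRP4, the agrin receptor, and MYF6, a regulator of mature fibres, fell by 1.99, 0.72 and 2.23. PAX7, the marker of satellite cells, had 3.48, 6.69 and 5.47 CPM against 2.24, 1.44 and 2.37 CPM, without overlap but short of the threshold (adjusted p 0.068). The embryonic myosin MYH3 had 16.2, 29.8 and 9.59 CPM against 18.6, 47.6 and 79.0 CPM and did not pass (adjusted p 0.21).

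Genes of endothelium and of fatty acid uptake were described in 3 lists, and whole tissue does not show which cells carried them. In the list of capillary and fatty acid uptake genes 9 of 13 fell and none rose, with a median of -2.78. CD36, the fatty acid translocase, had 65.4, 240 and 175 CPM in control and 10.1, 19.2 and 11.6 CPM in injury_only (log2 fold change -3.55, SE 0.56, adjusted p 0.0021). LPL, the lipase that frees fatty acids from circulating lipoproteins, had 231, 1279 and 642 CPM against 65.3, 95 and 80.6 CPM, and GPIHBP1, which holds that lipase on the capillary wall, fell by 2.78 (adjusted p 0.0068). TCF15, a transcription factor of capillary endothelium in muscle and heart, fell by 3.44 (adjusted p 0.0038).

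Genes found in all endothelium moved less. Of 13 such genes 3 fell, ROBO4, CDH5 and TEK, and the median was -1.05. CDH5, the cadherin of endothelial junctions, had 34.8, 137 and 65.6 CPM against 26.4, 41.4 and 20.4 CPM (log2 fold change -1.43, SE 0.44, adjusted p 0.036), and its groups overlapped. None of the 3 passed without control animal 2. Of 11 venous and lymphatic genes 1 rose, a share near that of all genes, none fell, and the median was 0.17. CCL21, the lymphatic chemokine that draws dendritic and T cells, had 8.37, 5.04 and 2.55 CPM against 21.7, 24.9 and 28.8 CPM and rose by 2.24 (SE 0.69, adjusted p 0.037). The capillary and venous lists were not tested against each other.

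Of 13 pericyte and smooth muscle genes 4 fell and none rose. RGS5, a marker of pericytes, had 71.2, 245 and 112 CPM in control and 17.1, 43.0 and 17.0 CPM in injury_only (log2 fold change -2.47, SE 0.54, adjusted p 0.0084). PDGFRB, the receptor for the growth factor that recruits pericytes, fell by 1.53, LMOD1 by 2.15 and ABCC9 by 1.82. MYH11, the smooth muscle myosin, pointed the other way with 42.9, 62.9 and 36.6 CPM against 72.5, 83.3 and 104 CPM, without overlap and without passing (adjusted p 0.33). Of 12 Schwann cell and nerve genes 2 fell, a share near that of all genes, and their median was -0.25, from 0.21 in left folds and -1.27 in right folds. Among those that fell was CDH19, a cadherin of Schwann cells and their precursors, which went from 7.83, 19.5 and 13.4 CPM to 0.747, 2.12 and 1.13 CPM (log2 fold change -3.34, SE 0.56, adjusted p 0.0028).

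Fibroblast genes were lower, while most collagen chains did not pass the test. Of 15 fibroblast identity genes 8 fell and none rose, with a median of -1.12. PDGFRA, the growth factor receptor that marks fibroblasts, had 45.2, 79.0 and 92.0 CPM in control and 35.2, 31.9 and 18.8 CPM in injury_only (log2 fold change -1.33, SE 0.36, adjusted p 0.021). CLEC3B, a secreted plasminogen-binding protein, fell by 1.59 and SERPINF1, an anti-angiogenic factor, by 1.18 (adjusted p 0.012 and 0.024). Depending on the animal left out, 2 to 9 fibroblast genes were called.

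Of 16 collagen chains 4 fell, and 3 of these belong to basement membranes or lie beside them. COL4A1 and COL4A2, the chains of the common type IV collagen, had 113, 315 and 158 CPM against 71.0, 79.9 and 60.3 CPM and 53.1, 125 and 65.6 CPM against 38.6, 39.0 and 30.0 CPM. They fell by 1.47 (SE 0.33) and 1.18 (SE 0.27), with adjusted p of 0.010 and 0.012. COL15A1, a chain of the basement membrane zone of muscle and capillaries, fell by 1.46, and COL12A1, which associates with fibrils, by 0.72. The fibrillar chain COL3A1 had 654, 401 and 313 CPM against 342, 362 and 202 CPM and did not pass (adjusted p 0.33).

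Proteoglycans, hyaluronan genes and proteases each gave a few calls. OGN, a small leucine-rich proteoglycan, and HSPG2, the perlecan of basement membranes, fell by 1.16 and 0.89, and 4 of 12 proteoglycans fell in all. HYAL1, a lysosomal hyaluronidase, rose by 0.79 (31.9, 23.3 and 22.8 CPM against 56.1, 41.0 and 38 CPM, adjusted p 0.022). TNFAIP6, which cross-links hyaluronan in inflamed tissue, fell by 1.81 (adjusted p 0.018). The macrophage elastase MMP12 had 0.0833, 0 and 0 CPM against 0.433, 0.779 and 0.447 CPM and rose (adjusted p 0.015), as did the collagenase MMP13 (adjusted p 0.045), both at a few reads per library in control. ADAMTS5, an aggrecanase, fell by 1.82 (adjusted p 0.026) and PLAU, the urokinase that activates plasmin, fell by 0.70 (adjusted p 0.046), so that of 22 proteases and cross-linking enzymes 2 rose and 2 fell, shares near those of all genes. Of 19 genes of TGF-beta signalling, the pathway of scar formation, none rose and 3 fell, a share near that of all genes. SMAD6, TGFB3 and TGFBR3 fell by 1.09, 1.01 and 0.58.

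Stratified squamous epithelium did not separate the groups when folds were summed. None of 11 genes of basal cells and hemidesmosomes, 17 of the squamous surface or 10 of wound-edge keratinocytes passed edgeR's test, and DESeq2 called 1, DST (log2 fold change -0.39 and adjusted p 0.107 in edgeR), a linker of keratin filaments to hemidesmosomes. The squamous list took 2.74%, 0.992% and 2.00% of gene reads in control and 1.67%, 2.41% and 2.60% in injury_only. Its median log2 fold change was -0.87 from left folds alone and 0.73 from right folds alone.

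Genes of airway-type epithelium were higher in injury_only when folds were summed, though not in every fold. Of 8 genes of multiciliated cell fate 5 rose (MYB, MCIDAS, RFX3, DEUP1 and CCNO), with a median of 3.58. MYB, a regulator of early ciliogenesis, had 4.52, 2.75 and 4.90 CPM in control and 42.5, 18.2 and 12.4 CPM in injury_only (log2 fold change 2.58, SE 0.52, adjusted p 0.0058). RFX3, a transcription factor of cilium genes, had 14.7, 13.9 and 18.2 CPM against 76.0, 38.8 and 32.6 CPM and rose by 1.65 (SE 0.38, adjusted p 0.011). DEUP1, which builds the centrioles that multiply in these cells, was at 0.0833, 0 and 0.344 CPM against 11.8, 2.90 and 1.25 CPM. All of these were highest in injury_only animal 1. By library, the list took 0.0044% of gene reads in the left fold of animal 2 and 0.0027% in the right fold of animal 3. Both lay within the control range of 0.00076% to 0.0053%, and the remaining injury_only libraries lay at 0.0151% to 0.0403%.

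Structural genes of the motile cilium had a larger median, 3.73, yet only CFAP43 of 19 passed. DNAH5, an outer dynein arm motor, had 0.458, 1.695 and 46.3 CPM in control and 382, 180 and 60.2 CPM in injury_only (log2 fold change 3.68, SE 1.98, adjusted p 0.20). In the right fold of control animal 3 this list took 0.0305% of gene reads, against at most 0.0021% in the other 5 control libraries. In injury_only it took 0.00176% in the right fold of animal 3 and 0.0135% to 0.202% in the other 4.

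Ion transport genes of the airway surface included SCNN1A, a subunit of the epithelial sodium channel, with 107, 51.5 and 105 CPM against 213, 184 and 219 CPM (log2 fold change 1.23, SE 0.24, adjusted p 0.0055). Its right minus left difference was -1.76 on the log2 scale in control and 0.07 in injury_only. In unscaled CPM (without TMM factors), the left fold of control animal 1 (140.6) lay above the left fold of injury_only animal 2 (125.1). CFTR, the chloride channel, rose from 2.48, 1.83 and 9.54 CPM to 49.8, 22.6 and 17.5 CPM (log2 fold change 2.69, SE 0.89, adjusted p 0.048). These were the 2 of 14 that passed. Of 22 genes of mucous and serous secretion 7 rose. Among them KRT8, a keratin of simple epithelium, had 216, 231 and 313 CPM against 624, 368 and 469 CPM (log2 fold change 0.94, SE 0.19, adjusted p 0.0058), and LYZ, the antibacterial lysozyme, 50.3, 29 and 29.8 CPM against 98.5, 72.5 and 94.2 CPM (log2 fold change 1.28, SE 0.32, adjusted p 0.015). The secretion list took 1.49%, 0.142% and 1.43% of gene reads in control and 7.30%, 4.53% and 9.01% in injury_only. By library, 1 fold carried the share in injury_only animals 2 and 3. Animal 2 had 0.632% in the left and 8.71% in the right fold, and animal 3 had 19.06% in the left and 0.377% in the right fold. The lower fold of each lay within the control range of 0.042% to 2.86%.

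Immune genes gave small counts on low levels. Of 16 T and NK cell genes 4 rose. LCK, the kinase of T cell receptor signalling, had 0.936, 0.733 and 1.00 CPM in control and 2.79, 2.55 and 2.09 CPM in injury_only (log2 fold change 1.47, SE 0.28, adjusted p 0.0043). CD28, the costimulatory receptor, had 0.146, 0.0916 and 0.0286 CPM against 0.511, 0.331 and 0.564 CPM (adjusted p 0.0097). TBX21, the regulator of type 1 T cells and NK cells, went the other way, from 0.541, 1.92 and 1.57 CPM to 0.315, 0.307 and 0.235 CPM (log2 fold change -2.22, SE 0.70, adjusted p 0.040).

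Of 13 macrophage genes 1 rose and 1 fell, shares at or below those of all genes. CD68, a lysosomal protein of macrophages, had 24.8, 17.2 and 22.1 CPM against 52.0, 37.2 and 54.7 CPM and rose by 1.17 (SE 0.29, adjusted p 0.015). Its right minus left difference was -1.60 on the log2 scale in control and -0.12 in injury_only. In unscaled CPM, the left fold of control animal 1 (33.4) lay above the left fold of injury_only animal 2 (32.1). CD163, the scavenger receptor of resident macrophages, had 2.12, 1.97 and 2.83 CPM against 0.315, 0.756 and 1.01 CPM and fell by 1.72 (SE 0.48, adjusted p 0.026). Of 15 antigen presentation genes 6 rose and none fell. CTSS, the protease that trims the invariant chain, had 19.5, 14.8 and 21.1 CPM against 65.6, 46.7 and 55 CPM (log2 fold change 1.59, SE 0.35, adjusted p 0.0086), and PSMB10, an immunoproteasome subunit, rose by 0.84 (adjusted p 0.0097). Between 2 and 8 genes of antigen presentation were called as animals were left out.

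Among 20 cytokines and chemokines 1 rose and 2 fell, shares below those of all genes. IL18, an epithelial and macrophage cytokine, rose from 133, 58.4 and 104 CPM to 183, 168 and 210 CPM (log2 fold change 0.92, SE 0.23, adjusted p 0.015). Its right minus left difference was -1.84 on the log2 scale in control and 0.10 in injury_only. The left fold of control animal 1 was at 173.5 unscaled CPM. That was above the left fold of injury_only animal 1 (159) and both folds of animal 2 (144 and 157). The stromal chemokine CXCL12 had 30.3, 159 and 72.7 CPM against 20.9, 35.1 and 23.9 CPM and fell by 1.71 (SE 0.47, adjusted p 0.023), with overlap. CSF1, the growth factor of macrophages, fell by 0.65 (adjusted p 0.035). No gene of the neutrophil, mast cell or interferon response lists passed in edgeR, DESeq2 or limma voom.

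Targets of the glucocorticoid receptor were lower, 5 of 7, with none higher. FKBP5, a co-chaperone of that receptor and one of its most responsive targets, had 17.4, 8.38 and 16.8 CPM in control and 2.60, 3.73 and 2.73 CPM in injury_only (log2 fold change -2.23, SE 0.47, adjusted p 0.0072). TSC22D3, an anti-inflammatory target, had 140, 206 and 153 CPM against 56.6, 96.0 and 63.8 CPM and fell by 1.21 (SE 0.24, adjusted p 0.0055). ZBTB16 and KLF9, transcription factors induced by the receptor, fell by 2.09 and 1.49, and the kinase SGK1 by 0.69 (adjusted p 0.0058, 0.0068 and 0.042). FKBP5 was lowest of the control group in animal 2, the animal with the most muscle reads, while ZBTB16 and KLF9 were highest there (105 and 66.0 CPM). Without any 1 animal, 4 of the 7 were still called.

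Of 10 hypoxia genes 5 fell. ADM, the vasodilator adrenomedullin, had 13.7, 22.2 and 18.2 CPM against 2.56, 4.56 and 3.13 CPM (log2 fold change -2.40, SE 0.33, adjusted p 0.0019). CA9, a carbonic anhydrase induced by low oxygen, had 14.7, 23.8 and 9.91 CPM against 1.57, 1.89 and 0.799 CPM and fell by 3.505 (SE 0.52, adjusted p 0.0019). PDK1, which restrains pyruvate dehydrogenase, VEGFA, the vessel growth factor, and BNIP3, a mitophagy receptor, fell by 1.71, 1.04 and 1.05.

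Circadian and stress genes gave few calls. CIART, CRY2 and NR1D2, repressors in the clock, fell by 1.47, 1.28 and 1.38, 3 of 15 clock genes, and the hour of collection is not in the labels. CRELD2 and SDF2L1, chaperones of the endoplasmic reticulum, rose by 0.91 and 0.82, 2 of 12. At these list sizes both counts are near the shares of all genes (13.8% lower and 8.31% higher). The clock count was 0 without injury_only animal 1, and the endoplasmic reticulum count was 0 without control animal 2. Of 24 cell cycle genes none passed, although all 24 fold changes lay above 0. Their median was 0.32, from -0.37 in left folds and 1.35 in right folds. Of 78 cytosolic ribosome genes only RPL3L, the muscle form of RPL3, passed (log2 fold change -2.73, adjusted p 0.0086), and the median was 0.08, against -0.40 for the 14 proteasome core genes, of which 6 fell.

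Among genes with a symbol that passed, did not overlap and averaged 10 CPM or more in the higher group, the 12 largest rises included ANKRD1, SFTPA1 and the cilium genes DNAAF8, RSPH10B and CFAP43. ANKRD1, a stress protein of heart and skeletal muscle, led with 0.562, 0.366 and 0.115 CPM in control and 2.04, 68.1 and 96.5 CPM in injury_only (log2 fold change 7.28, SE 1.71, adjusted p 0.012). In single folds ANKRD1 was at 114.6 CPM (left) and 4.55 CPM (right) in animal 2 and at 5.47 CPM (left) and 151.6 CPM (right) in animal 3, the folds in which CHRNG was high and low. DNAAF8, a factor for assembly of dynein arms, had 0.916, 0.229 and 1.03 CPM against 22.5, 7.01 and 3.90 CPM (log2 fold change 3.91, SE 0.75, adjusted p 0.0047). SFTPA1, the collectin surfactant protein A, had 28, 2.75 and 15.8 CPM against 282, 152 and 167 CPM (log2 fold change 3.68, SE 1.10, adjusted p 0.033). By library, SFTPA1 was at 29.96 CPM in the left fold of injury_only animal 2 and 1.975 CPM in the right fold of animal 3. Both lay within the control range of 0 to 48.0 CPM. DNAAF8, at 1.025 CPM in the right fold of animal 3, also lay within its control range of 0.11 to 1.289 CPM.

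The largest falls included MYH6, a cardiac-type myosin that also occurs in craniofacial muscle, at 307, 1398 and 623 CPM against 15.4, 50.9 and 36.8 CPM (log2 fold change -4.50, SE 1.32, adjusted p 0.030). FABP3, the fatty acid carrier of muscle and heart, had 99.6, 224 and 203 CPM against 22.4, 16.4 and 16.4 CPM and fell by 3.25 (SE 0.51, adjusted p 0.0021). SLC4A3, a chloride and bicarbonate exchanger, fell by 3.44 (SE 0.51, adjusted p 0.0019), and CD300LG, a receptor of capillary endothelium, by 3.45 (SE 0.75, adjusted p 0.0084).

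By difference in mean CPM rather than by ratio, the 6 largest gains were of CES1, TFF2, CLU, STOM, CXCL17 and TSPAN1. TFF2, a trefoil peptide of mucous glands, had 117, 108 and 183 CPM against 416, 801 and 1583 CPM (log2 fold change 2.78, SE 0.75, adjusted p 0.022). TSPAN1, a tetraspanin of secretory and ciliated epithelium, had 172, 59.2 and 183 CPM against 950, 447 and 501 CPM (log2 fold change 2.20, SE 0.47, adjusted p 0.0077). By library, TFF2 was at 151.3 CPM in the left fold of injury_only animal 2 and 100.1 CPM in the right fold of animal 3. Both lay within the control range of 15.47 to 263.7 CPM. TSPAN1, at 170 CPM in the left fold of animal 2, lay within its control range of 10.34 to 223.9 CPM. CXCL17, a mucosal chemokine, and CLU, the chaperone clusterin, rose by 1.03 and 1.36. The largest losses included ALDOA, the muscle aldolase, at 7033, 24560 and 13310 CPM against 3135, 3045 and 3429 CPM, and GAPDH, at 6815, 22540 and 13190 CPM against 4136, 3873 and 3627 CPM (log2 fold change -1.87, SE 0.41, adjusted p 0.0083).

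Another 2 of the largest losses carry locus tags in place of symbols, KEF51_p01 and KEF51_p03. The count table has 37 rows of this prefix, 13 with p, 22 with t and 2 with r in the tag, the numbers of proteins, transfer RNAs and ribosomal RNAs in an animal mitochondrial genome, but the files do not pair the tags with names. Their summed share lay between 5.43% and 29.02% of gene reads across control libraries and between 2.14% and 9.77% across injury_only libraries. KEF51_p03 had 14270, 58760 and 26380 CPM against 4963, 10690 and 5197 CPM (log2 fold change -2.25, SE 0.53, adjusted p 0.012).

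Some tags of this prefix divided the injury_only animals. KEF51_p07 was at 7172 to 42510 unscaled CPM (without TMM factors) in the 6 control libraries, 13890 and 9990 in the folds of injury_only animal 2, and 31.9 to 43.7 in the folds of animals 1 and 3. In animals 1 and 3, 10 of the 13 p tags were under 200 unscaled CPM, against 5 in animal 2 and 1 to 5 in control. Other tags did not divide them, such as KEF51_p04, at 2723 to 3857 in animals 1 and 3 and at 3595 and 4600 in animal 2. Reads outside genes made up 10.2% to 11.6% of all reads in animals 1 and 3, 7.22% and 7.40% in animal 2, and 5.07% to 6.69% in control. The batch D library of animal 1 had 28.5 for KEF51_p07 and 11.02% of reads outside genes. Without the 37 rows, 1694 genes were higher and 2159 lower, and 23 of 24 citric acid cycle genes were still called. Whether all libraries were counted against the same reference and annotation is not known from the sources used here. The summed share and the falls of these tags therefore cannot be read as levels of transcripts, and the reason for the difference between animals was not tested. Reads outside genes were more frequent in every injury_only library than in any control library. Whether a difference of reference or annotation also affected the calls of other genes was not tested, and this limit applies to all calls above.

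**Figure D4:**
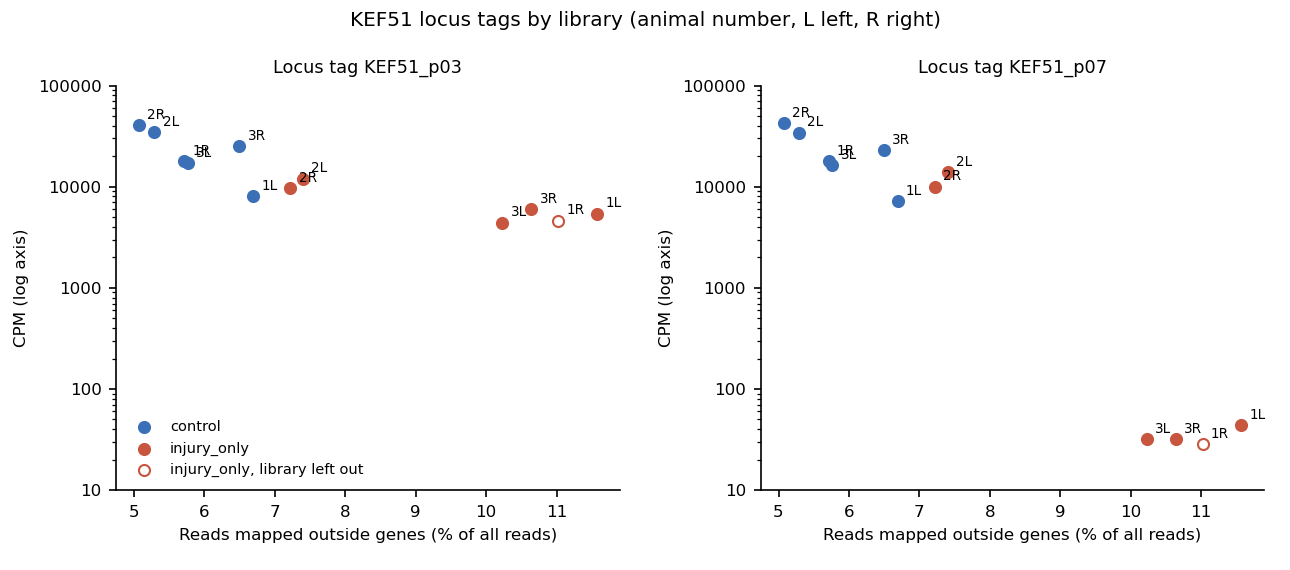
Unscaled CPM (log axis) of locus tags KEF51_p03 and KEF51_p07 against the share of all reads that mapped outside genes, in percent, 1 point per library labelled by animal and side. For KEF51_p07, injury_only animals 1 and 3 lie at 28.5 to 43.7 in every fold, while animal 2 and all control libraries lie between 7172 and 42510.

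The side of the fold mattered for this comparison. From right folds alone (2 injury_only and 3 control animals) 1736 genes were higher and 2602 lower. From left folds alone (3 against 3) edgeR called 0 genes at an adjusted p under 0.05, with 3756 of 16601 at an unadjusted p under 0.05, limma voom called 0 (2589 at an unadjusted p under 0.05), and DESeq2 called 872 higher and 784 lower. The direction held for list medians of metabolism. The citric acid cycle list had a median of -1.11 from left folds and -1.97 from right folds, complex I -0.91 and -1.86, the capillary list -1.86 and -3.99, and multiciliated cell fate 3.37 and 2.40. Collagen chains stood at -0.11 and -1.66, and fibroblast identity at -0.50 and -1.78.

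Muscle content was also entered in the fit of summed folds, as the mean log2 CPM of the muscle fibre lists in each animal. All 15 animals, the injected ones included, set the slope of this covariate. EdgeR then called 0 genes, with 4351 at an unadjusted p under 0.05, and limma voom called 1, which was lower in both fits. The group difference that remained had a median of -1.34 for the citric acid cycle, -0.77 for fatty acid beta-oxidation, -0.80 for glycolysis, -1.54 for the capillary list, -0.81 for glucocorticoid targets and 2.89 for secretion. Cell cycle genes changed sign, to -0.61. Muscle content is low in all 3 injury_only animals and high in all 3 control animals, so the muscle level and the group cannot be told apart.

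Within control animals, right folds differed from left folds in 5153 of 16634 genes, and within injury_only in 0 by edgeR, with 2 animals having both folds. The difference between the groups in right minus left passed for 2271 genes (13.7% of those tested), of which 1607 (9.66%) were positive and 664 (3.99%) negative. The median right minus left difference was 1.52 for fast muscle fibre genes in control and 0.01 in injury_only, and for citric acid cycle genes it was 0.94 and -0.04. The injury_only value for fast muscle averages opposite differences, since these genes took 1.445% of gene reads in the left and 0.512% in the right fold of animal 2, and 0.602% and 1.81% in animal 3. For squamous surface genes the median difference was -1.58 in control and 0.77 in injury_only, and for cell cycle genes -1.57 and 0.69. Squamous genes, too, went opposite ways in the 2 injury_only animals, with 3.11% (left) and 1.65% (right) in animal 2 and 0.692% and 4.24% in animal 3. Cell cycle genes took 0.0555% (left) and 0.0529% (right) in animal 2 and 0.0322% and 0.103% in animal 3. By this share the right fold was the higher in animal 3 only. Of the 24 cell cycle genes 13 passed the test of the difference, all positive, and 10 of 24 citric acid cycle genes did, all negative. Which fold level is the more typical of uninjured tissue was not tested.

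**Figure D5:**
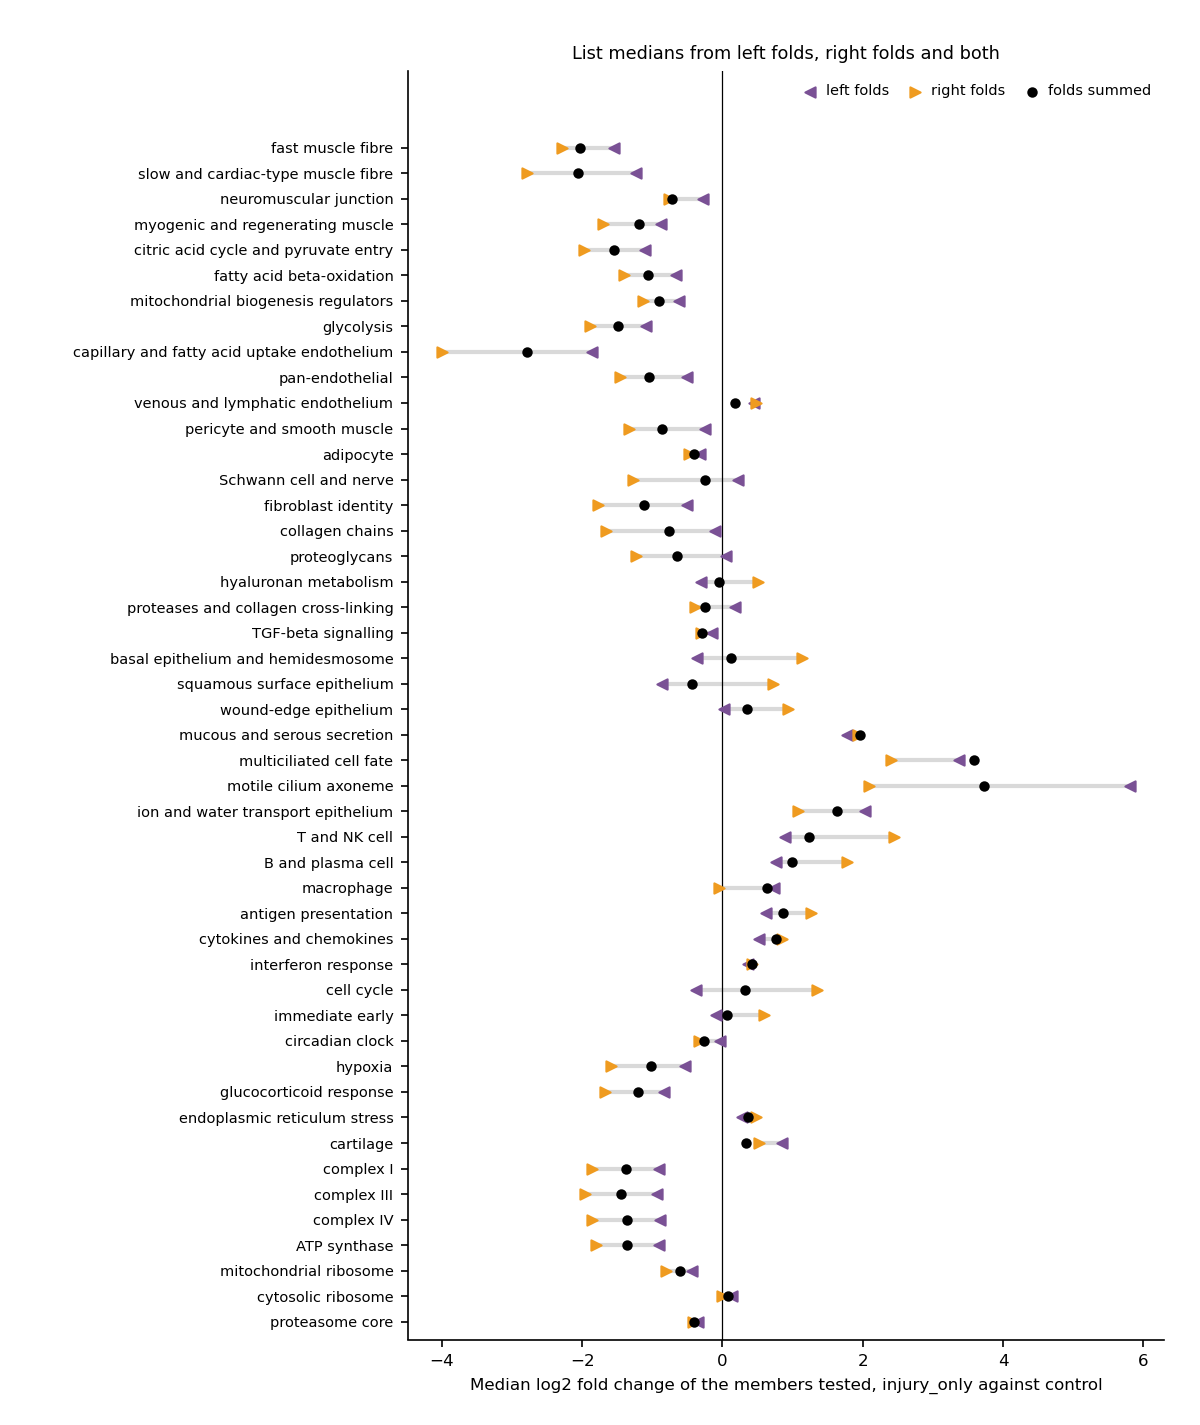
Median log2 fold change of the members tested of each list, injury_only against control, from left folds (3 against 3 animals), right folds (2 against 3) and summed folds. Lists of metabolism and capillaries stay below 0 and lists of cilia, secretion and antigen presentation stay above 0 on both sides, while squamous epithelium, basal epithelium and cell cycle lie on opposite sides of 0.

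The batch D library of injury_only animal 1, which no fit above used, was set beside the control libraries. It lay above all 6 of them for 1362 of the 1474 genes that rose (92.4%) and below all 6 for 2142 of the 2448 that fell (87.5%), against 29.5% and 22.8% of all genes tested. The genes had been called against these same 6 control libraries, so part of the excess over all genes follows from that choice. It is therefore no separate test of the calls. This library also comes from the same animal as a left fold that entered the fit, and batch and side cannot be told apart in it.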

How the data were processed

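Messenger RNA libraries of single vocal folds were sequenced, per the labels. The authors deposited raw read counts per gene for each library, made with STAR 2.7.10b per the submitters' processing notes, while the build and annotation used were not given in the sources used here. The count column for the strand of the second read was used without the rows for unassigned reads, and both folds of each animal were summed, which gave 15 animals in 5 groups.

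Counts were fitted with edgeR 4.0.16 (limma 3.58.1, R 4.3.3) by quasi-likelihood with TMM factors, after filterByExpr with a minimum count of 10. All 15 animals share the estimate of the spread (10 residual degrees of freedom), and p-values measure the spread between animals. Adjustment was by Benjamini and Hochberg over 17748 genes. The SE is the log2 fold change divided by the square root of the F statistic and is approximate. An exact test of 3 against 3 animals cannot go below p = 0.1, so none is given. In counts simulated for this comparison, 16% of 100 genes changed 2-fold and 66% of 100 changed 4-fold were recovered, with 5 false calls among 17561 genes. Far fewer genes were changed there than the 3922 called in the data, and the adjusted p depends on that share. The recovered shares therefore do not measure the recovery in the data.

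Of 31346 genes, 14615 carry a LOC number, of which 521 were named through RefSeq gene IDs. The 51 gene lists hold 898 entries, of which 844 were found. Members and lists were chosen with earlier results of these data known. Named genes are the 2 anchors and up to 4 called members of each list with the smallest p, the 12 largest fold changes in each direction and the 6 largest CPM differences in each direction (a mean of at least 10 CPM, no overlap). The isoform pairs, the other KEF51 tags and the lysosome lists lie outside this rule and were chosen after their values were seen. Alternatives were DESeq2 1.42.0, its size factors, no filter, the 2 groups alone, a replicate block, each side, the batch D library, limma voom, unstranded counts, muscle or mitochondrial genes left out, a muscle covariate and each animal left out.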

Additional observations from a re-analysis of the deposited data

Results flagged for a closer look

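In 182 groups of libraries that were checked, 16 had 1 library far from the others. The cut-off flags about 1 in 20 groups by chance if values are normally distributed, which was not checked. The groups share libraries and related genes, so the flags are not independent of each other. The right fold of control animal 3 stood apart for genes of motile cilia. The axoneme list took 0.0305% of its gene reads, against 0.0021% in the next control library. CPM there was 24.9 for CFAP43, 5.40 for CAPS2, 5.65 for CATIP, 4.05 for DYNLT4, 4.73 for ENO4, 2.76 for RSPH10B and 7.00 for TSGA10, each the highest of the 6 control libraries.

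The left fold of control animal 1, the control library with the least muscle, was highest for venous and lymphatic genes (0.0273% of gene reads, against 0.0154% in the next library), for cytokines and chemokines (0.0428% against 0.0208%) and for CLU (652 CPM against 277 CPM). In the right fold of control animal 2, MYH6 reached 2025 CPM, against 783 CPM in the next control library. Among injury_only libraries, the left fold of animal 2 was highest for CD300LG (4.78 CPM) and CDH19 (2.93 CPM), the right fold of animal 3 for MYH13 (510 CPM, against 104 CPM), and the left fold of animal 3 for unmapped reads (5.41%, against 3.88%).

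The difference between right and left folds differed between injury_only and control for 2271 of 16634 genes, by a test of that difference chosen after the fits by side were seen. The batch D library, which entered only alternative fits, lay above every control library in its share of reads for secretion (5.93% against at most 2.86%), the axoneme (0.118% against 0.0305%), multiciliated cell fate (0.0259% against 0.00532%) and antigen presentation (0.16% against 0.0791%).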

How the results depend on the processing

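With summed folds, 1474 genes were higher and 2448 lower. DESeq2 called 2257 higher and 3206 lower, limma voom 913 higher and 2155 lower, and a fit of the 2 groups alone 792 higher and 1344 lower, 1905 of these shared with the main calls in direction. Leaving out 1 animal gave 380 to 1481 higher and 1359 to 2828 lower. Left folds alone gave 0 higher and 0 lower in edgeR (3756 at an unadjusted p under 0.05), 0 and 0 in limma voom (2589) and 872 and 784 in DESeq2. The muscle level as a covariate gave 0 and 0 in edgeR (4351) and 0 higher and 1 lower in limma voom (4426). DESeq2 and limma voom on left folds, limma voom with the covariate, and the test of the side difference were chosen after seeing the data, and the cause of these differences was not tested.

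Size factors, the filter, strand, the batch D library, right folds, single libraries, muscle genes and mitochondrial genes kept both counts within 1.5 times. The replicate block gave 1202 higher and 2110 lower, and 14 of the 139 genes named lost their call. Same-numbered animals are different animals, their deviations correlated at -0.08, 0.16 and -0.13, and the numbers do not pair them.

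Few of the genes named changed sign. ENO1 (0.06) went to -0.145, -0.157 and -0.16 from left folds in edgeR, DESeq2 and limma voom, and to -0.366 and -0.364 with the muscle covariate in edgeR and limma voom. It lay between -0.0981 and 0.18 as animals were left out. PGAM1 (0.13) went to -0.0457, -0.0608 and -0.0319, and to -0.447 and -0.436, in the same order, and lay between -0.0547 and 0.276. MYH4 went to 1.52 and 1.82 with the covariate, and KEF51_p07 to 0.171 in edgeR. Neither ENO1 nor PGAM1, MYH4 or KEF51_p07 passed in the fit of summed folds. KEF51_p07 passed without injury_only animal 2, at -9.84.

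The fit of 3 against 3 animals at this depth recovered 16% of 2-fold changes in simulated data, in which far fewer genes were changed than were called here. The recovery in the data themselves was not measured, and a gene short of the threshold is not shown to be equal.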

Other observations

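Lysosomal enzymes were listed as a group, of which the report describes CTSS alone, beside HYAL1, which is outside the list. This list, like those of the lysosomal membrane and the peroxisome, was written after values were seen, so its count is a description with no test of the list. Of 35 acid hydrolases and related lumen proteins 18 were higher in injury_only and none lower. Their median was 0.64 on the log2 scale (0.56 from left folds and 0.68 from right folds), against 8.31% higher among all genes. FUCA1, the lysosomal fucosidase, had 71.6, 60.1 and 63.0 CPM in control and 128, 132 and 134 CPM in injury_only (log2 fold change 1.02, SE 0.16, adjusted p 0.0020). ASAH1, the acid ceramidase, had 79.7, 69.1 and 88 CPM against 162, 143 and 141 CPM (log2 fold change 0.91, SE 0.14, adjusted p 0.0019). MANBA, a mannosidase, had 7.49, 6.73 and 4.53 CPM against 14.9, 16.9 and 14.7 CPM. The groups did not overlap in any of the 3, and 10 to 17 hydrolases were called as animals were left out, 10 without control animal 2.

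Proteins of the lysosomal membrane and its proton pump did not share this direction. Of 22 genes 3 were higher (CLN3, LAMP1 and ATP6V1B2) and 2 lower (ATP6V1E1 and ATP6V1G1), with a median of 0.04. Of 22 peroxisome genes 4 were higher and 5 lower, with a median of 0.04.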
